A study of Homo sapiens with 6 samples.

Results

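The genes described here are 7 textbook targets of the vitamin D receptor outside CYP24A1: G0S2, SPP1, ATP2B1, IGFBP3, DUSP10, LRP5 and THBD. They were chosen by symbol from a table of gene counts with 19201 entries, and 6 of the 7 had an entry, each with the Ensembl ID that GENCODE 44 gives to the symbol. All 6 passed the filter on low counts. THBD, the gene of the endothelial thrombin receptor thrombomodulin, was not analysed here. The counts came from RNA-seq of H1299, a human lung cancer cell line, in 3 wild-type libraries and 3 libraries of cells that overexpress lncBCAS1-4_1, a long non-coding RNA. The labels name no vector for the wild-type cells and no vitamin D treatment for either group, so an effect of the overexpression procedure cannot be told apart from one of the RNA. They also do not tie replicates to separate cultures, and a p-value here therefore measures the spread among these 6 samples alone, which may be technical. Libraries held 84531039 to 92780032 counts, and fewer cells with a transcript and less transcript per cell cannot be told apart in such bulk samples.

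The vitamin D receptor is a nuclear receptor that binds DNA together with a retinoid X receptor once 1,25-dihydroxyvitamin D is bound to it. Its classical binding site is a pair of hexamers related to AGGTCA in the same orientation with a gap of 3 bases. The hydroxylase CYP24A1, which inactivates the hormone, is its most strongly induced target in many cell types. The genes described here are targets in calcium transport, matrix and bone biology, growth factor and kinase signalling and lipid storage, and many of their binding sites lie far from the start of transcription.

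In the overexpressing cells G0S2, SPP1 and ATP2B1 fell, LRP5 rose, and IGFBP3 and DUSP10 did not pass the test. None of the differences reached 2-fold, while CYP24A1 in the same libraries differed 3743-fold. Whether reads of the overexpressed RNA itself were counted as CYP24A1 was not tested. The falls of G0S2 and SPP1 also passed after a correction for the GC content and length of transcripts, and the differences of ATP2B1 and LRP5 did not. Unlike that of G0S2, the corrected SPP1 call was lost in most fits without 1 library, and when GC content alone was corrected for. Of the 6 genes, 3 were lower and 1 higher at an adjusted p under 0.05 (edgeR's quasi-likelihood test, Benjamini-Hochberg over all entries tested). The background was high, since 38.0% of the 19101 entries tested passed, 19.7% as lower and 18.3% as higher. After the correction 2 of the 6 were lower and none was higher, against 22.3% of entries passing, 11.6% as lower and 10.7% as higher. With 6 genes these counts are a description.

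The DNA upstream of both genes that fell in both fits is shown first, because these promoters differ in base composition although the transcripts moved in the same direction. Sequences are those of RefSeq for GRCh38.p14, read 5′ to 3′ on the gene's strand. The G0S2 stretch lies at chr1:209675162-209675411 on the plus strand and ends at the base before the annotated start. The SPP1 stretch lies at chr4:87975464-87975666 on the plus strand and ends before the first GENCODE start of the gene.
G0S2 upstream: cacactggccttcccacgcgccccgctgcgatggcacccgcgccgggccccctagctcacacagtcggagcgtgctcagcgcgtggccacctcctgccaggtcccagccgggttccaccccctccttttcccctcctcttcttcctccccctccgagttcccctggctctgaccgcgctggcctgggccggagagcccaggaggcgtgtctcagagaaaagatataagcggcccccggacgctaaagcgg
SPP1 upstream: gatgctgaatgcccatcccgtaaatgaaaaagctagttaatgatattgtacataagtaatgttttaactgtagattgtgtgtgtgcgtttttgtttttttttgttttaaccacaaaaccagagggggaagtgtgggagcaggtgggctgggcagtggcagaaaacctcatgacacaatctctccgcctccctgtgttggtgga
The G0S2 stretch has 69.2% G and C over 250 bases and 21 CpG dinucleotides, and the SPP1 stretch has 43.3% over 203 bases and 3 CpG dinucleotides. Neither holds any of the 4 hexamers searched on both strands, which were the first hexamer AGGTCA, the second hexamer GGGTCA, the third hexamer GGTTCA and the fourth hexamer AGTTCA, so neither is printed with capitals.

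All 6 genes had an entry among the RefSeq promoter windows, which run from 250 bases before to 50 bases after a start, and ATP2B1 and DUSP10 had 2 windows each. A hexamer occurred in the window of IGFBP3 and in the second window of DUSP10. Both windows belong to RefSeq starts that lie inside the GENCODE span of the gene given further on, so these stretches are within the gene's span and not upstream of its outermost start. They are shown with 12 bases on either side and the hexamer, here on the reverse strand, in capitals.
IGFBP3, 224 bases before its RefSeq start, chr7:45921479-45921508, minus strand: tagacgacaaggTGACCCgggctccgggcg
DUSP10, 208 bases before its second start, chr1:221737091-221737120, minus strand: tgtggataggggTGACCCatcagtcattga
DUSP10, 46 bases before its second start, chr1:221736929-221736958, minus strand: aggacacactgcTGACCTcaccactgggcg
Of all 35116 windows of this length, 38.6% held at least 1 of the 4 hexamers. A pair of them in the same orientation with a gap of 3 bases was in 0.074% of all windows and in none of the 8 windows of these genes. A match is only a match of letters, and the absence of one says nothing of binding elsewhere.

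G0S2 encodes a small inhibitor of the triglyceride lipase PNPLA2 that sits on lipid droplets. The gene (ENSG00000123689) lies at 209675412 to 209676390 on chromosome 1 (plus strand) in GRCh38, and its canonical transcript has 2 exons and 876 bases. Its level was 277, 274 and 288 CPM (counts per 1e6 TMM-scaled library counts) in the wild-type libraries and 199.8, 184 and 177 CPM in the overexpressing ones. Every overexpressing library was below every wild-type library. The groups did not overlap, in either direction, for 4 of the 6 genes and for 50.7% of all entries tested. The mean was 279 ± 7.71 CPM in wild-type and 187 ± 11.9 CPM in overexpressing cells (SD, n = 3 each), a fall of 33.2% (log2 fold change -0.58, SE 0.05, adjusted p = 0.00015). After the correction the fall was larger, at a log2 fold change of -0.85 (SE 0.04, 95% interval -0.93 to -0.76, adjusted p = 1.5e-06), with corrected levels of 306, 305 and 307 against 177, 167 and 166 CPM.

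Per length, G0S2 was the most abundant of the 6 genes by a wide margin. It stood at 319 ± 8.80 CPM per kb of canonical transcript in the wild-type cells (SD, n = 3), above 99.0% of all entries tested. The other five lay between 2.11 and 10.3 CPM per kb. In descending order these were LRP5, IGFBP3, ATP2B1, SPP1 and DUSP10, with no overlap between neighbours over the wild-type libraries. In the overexpressing cells the order was the same, and the ranges of SPP1, at 2.65 ± 0.427, and DUSP10, at 2.19 ± 0.104 CPM per kb, overlapped.

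**Figure D1:**
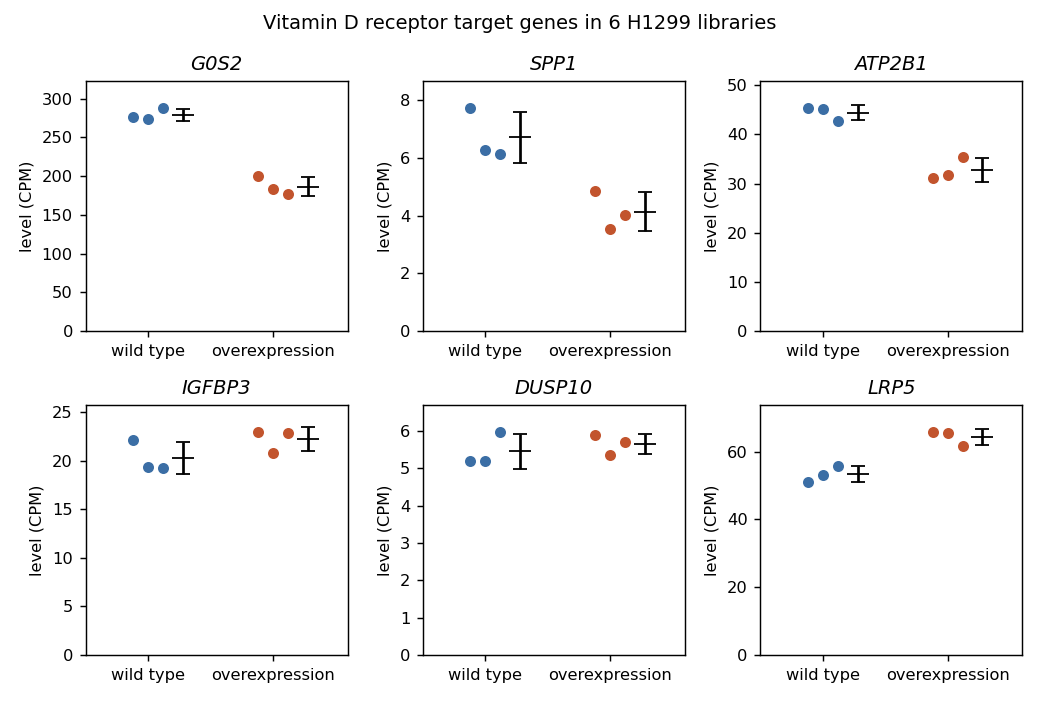
Level of each of the 6 genes in counts per 1e6 TMM-scaled library counts (CPM, vertical axis from 0), with 1 point per library for wild-type and overexpressing H1299 and the mean ± SD beside the points (n = 3 each). G0S2, SPP1 and ATP2B1 lie lower and LRP5 higher in every overexpressing library, and the points of IGFBP3 and DUSP10 overlap between the groups.

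Among 12 measured genes of lipid droplets and lipolysis, 5 were higher (41.7%, against 18.3% of all entries) and none was lower as fitted. Their median log2 fold change was 0.16 against 0.00 for all entries tested (-0.0041 before rounding). PNPLA2, the lipase that the G0S2 protein inhibits, rose from 99.0 ± 6.87 to 125 ± 6.21 CPM, SD over 3 libraries a group (log2 fold change 0.34, adjusted p = 0.0021), and DGAT1, an enzyme of triglyceride synthesis, by 0.42 on the log2 scale (adjusted p = 0.00059). Neither passed after the correction, where PNPLA2 stood at -0.011 (adjusted p = 0.86) and DGAT1 at 0.14 (adjusted p = 0.059). Corrected, 1 of the 12 passed, the lipase activator ABHD5 at 0.31 (adjusted p = 0.041). The droplet coat gene PLIN2 was at 72.2 ± 1.30 and 72.4 ± 2.78 CPM (log2 fold change 0.0036, adjusted p = 0.96) and the hypoxia-induced lipase inhibitor HILPDA at 11.7 ± 1.67 and 11.5 ± 0.717 CPM (SD, n = 3 each). The lowest value of the 12 was -0.25 as fitted and -0.41 corrected, and with 12 genes a count of none lower is a description beside the 19.7% and 11.6% of all entries that passed as lower.

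SPP1 encodes osteopontin, a secreted phosphoprotein of bone matrix that binds integrins and CD44. The gene (ENSG00000118785) lies at 87975667 to 87983532 on chromosome 4 (plus strand), and its canonical transcript has 7 exons and 1561 bases. Its level was 7.73, 6.28 and 6.12 CPM in the wild-type libraries and 4.85, 3.52 and 4.04 CPM in the overexpressing ones, from 294 to 689 counts a library. The groups did not overlap, but SPP1 varied most among the 6 genes within a group, with a coefficient of variation of 13.2% in the wild-type and 16.1% in the overexpressing cells. The fall was 38.4% (log2 fold change -0.70, SE 0.16, 95% interval -1.06 to -0.34, adjusted p = 0.0076). Corrected, it was -0.53 (SE 0.15, adjusted p = 0.029), and this call was lost when any 1 library other than overexpressing library 1 was left out, with values from -0.67 to -0.45 over the 6 omissions (adjusted p from 0.016 to 0.10). It was also lost when the correction used GC content without length (-0.43, adjusted p = 0.065). An unnamed non-coding gene on the opposite strand (ENSG00000286618) overlaps exons of SPP1 in GENCODE and was not analysed here. Strand use in the counting is not given in the sources used here, so reads of both genes cannot be told apart.

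The genes of osteopontin's receptors moved in both directions. Of 8 measured, 2 were higher and 4 lower as fitted, and 2 higher and 1 lower after the correction. CD44, the hyaluronan receptor that also binds osteopontin, rose from 610 ± 4.86 to 677 ± 22.4 CPM, SD over 3 libraries a group (log2 fold change 0.15, adjusted p = 0.013; corrected 0.37, adjusted p = 0.00060). As fitted, the CD44 call was lost without wild-type library 1, wild-type library 2 or overexpressing library 2, with adjusted p from 0.011 to 0.061 over the 6 omissions, and with library size alone as the scaling (log2 fold change 0.10). The integrin subunit gene ITGB5 rose by 0.29 on the log2 scale (adjusted p = 0.0044; corrected 0.17, adjusted p = 0.030). The integrin gene ITGA4 fell (log2 fold change of -0.58, adjusted p = 0.00063), and its corrected value was -0.16 (adjusted p = 0.042). ITGB1, the most abundant integrin gene of the list, went from 671 ± 14.0 to 556 ± 24.8 CPM, SD over 3 libraries a group (log2 fold change -0.27, adjusted p = 0.0013), and its corrected value was 0.025 (adjusted p = 0.71).

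IGFBP3 encodes the main carrier protein of insulin-like growth factors in blood. The gene (ENSG00000146674) lies at 45912245 to 45921874 on chromosome 7 (minus strand), with 5 exons and 2613 bases in the canonical transcript. Its level was 22.2, 19.4 and 19.3 CPM in the wild-type libraries and 23.0, 20.8 and 22.8 CPM in the overexpressing ones. The groups overlapped, since wild-type library 1 lay above overexpressing library 2. The log2 fold change was 0.13 (SE 0.08, adjusted p = 0.27), and its 95% interval allows from a 0.959-fold to a 1.25-fold level. Corrected, the value was 0.0034 (adjusted p = 0.98) with an interval from -0.18 to 0.18.

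Of 8 other measured genes of the growth factor axis, 2 were higher and 1 lower as fitted. This combined share of 37.5% is close to the 38.0% of all entries. Once corrected, 3 passed as higher (37.5%) and 1 as lower (12.5%), where all entries had 10.7% and 11.6%. A list of 8 makes these shares a description. The paralogue IGFBP4 rose from 5.45 ± 0.272 to 10.5 ± 0.954 CPM, SD over 3 libraries a group (1.92-fold, adjusted p = 0.00043) and IGFBP6 1.67-fold (adjusted p = 0.0033), and both passed after the correction at 0.59 and 0.41 on the log2 scale. IRS1, the adaptor of the insulin and growth factor receptors, fell (log2 fold change of -0.43, adjusted p = 0.0020) and was at -0.32 corrected (adjusted p = 0.0072). The third corrected rise was that of IGF2R, the receptor that clears the growth factor, at 0.36 (adjusted p = 0.0026), which as fitted did not pass (0.19, adjusted p = 0.058).

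ATP2B1 encodes a plasma membrane pump that exports calcium from the cell. The gene (ENSG00000070961) lies at 89588049 to 89709366 on chromosome 12 (minus strand), and its canonical transcript has 21 exons and 7062 bases. Its level was 45.4, 45.2 and 42.6 CPM in the wild-type libraries and 31.1, 31.7 and 35.4 CPM in the overexpressing ones, with no overlap. As fitted this was a fall of 26.3% (log2 fold change -0.44, SE 0.07, adjusted p = 0.00097). After the correction the levels were 37.6, 37.1 and 39.0 against 37.0, 39.6 and 38.4 CPM, which overlap, and the value was 0.017 (adjusted p = 0.85) with a 95% interval from -0.09 to 0.12. The antisense gene ATP2B1-AS1 overlaps its exons and was far lower, at 1.71 ± 0.303 and 1.68 ± 0.139 CPM (SD, n = 3 each).

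Of 17 other measured genes of calcium transport, 5 were higher and 6 lower as fitted (29.4% and 35.3%, against 18.3% and 19.7% of all entries). After the correction 2 were higher and 2 lower. The corrected share of 11.8% in each direction is close to that of all entries, 10.7% higher and 11.6% lower. The Golgi calcium pump gene ATP2C1 fell (log2 fold change of -0.39, adjusted p = 0.00027) and was at -0.056 corrected (adjusted p = 0.48). ATP2B4, the other plasma membrane pump gene measured, was at -0.35 (adjusted p = 0.0022) and -0.14 corrected (adjusted p = 0.091). ATP2A1, the pump of muscle sarcoplasmic reticulum, rose from 1.40 ± 0.124 to 3.47 ± 0.640 CPM, SD over 3 libraries a group (log2 fold change 1.31, adjusted p = 0.00072; corrected 1.06, adjusted p = 0.0031). BSG, the gene of basigin, a partner subunit of plasma membrane calcium pumps, rose by 0.39 on the log2 scale (adjusted p = 0.00079) and was at 0.02 corrected (adjusted p = 0.76).

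**Figure D2:**
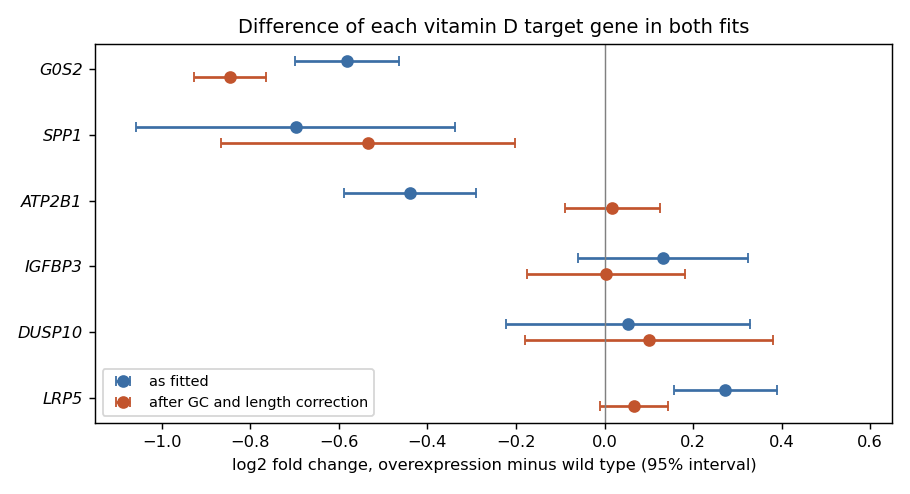
Log2 fold change, overexpression minus wild type, of each of the 6 genes with its 95% interval, as fitted (blue) and after the correction for GC content and transcript length (orange). G0S2 and SPP1 lie below 0 in both fits, and the intervals of ATP2B1 and LRP5 exclude 0 as fitted and include it after the correction.

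DUSP10 encodes a phosphatase that inactivates the stress kinases JNK and p38. The gene (ENSG00000143507) lies at 221701424 to 221742089 on chromosome 1 (minus strand), with 4 exons and 2589 bases in the canonical transcript. Its level was 5.19, 5.19 and 5.99 CPM in the wild-type libraries and 5.90, 5.37 and 5.71 CPM in the overexpressing ones, and all 3 of the latter lay within the range of the former. The log2 fold change was 0.05 (SE 0.12, adjusted p = 0.78) with a 95% interval from -0.22 to 0.33, or from a 0.856-fold to a 1.26-fold level. Corrected, it was 0.10 (adjusted p = 0.64).

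Its paralogue DUSP1, an immediate early phosphatase for the same kinases, rose from 19.2 ± 2.42 to 54.8 ± 5.01 CPM, SD over 3 libraries a group (2.85-fold, adjusted p = 3.6e-05), and by 1.25 on the log2 scale after the correction (adjusted p = 3.2e-05). Of 22 measured phosphatase, JNK and p38 pathway genes, 5 were higher and 5 lower as fitted (22.7% each, against 18.3% and 19.7% of all entries). After the correction 1 was higher and 4 were lower (4.5% and 18.2%, against 10.7% and 11.6%). DUSP1 was the higher one, and DUSP7, JUN, MAPK9 and MAP2K4 were the lower ones. MAPK9, the gene of a JNK kinase, fell (log2 fold change of -0.47, adjusted p = 0.00042; corrected -0.24, adjusted p = 0.0074), and so did MAP2K4, which activates JNK (log2 fold change of -0.52, adjusted p = 0.0011; corrected -0.28, adjusted p = 0.017). MAP2K3, which activates p38, rose by 0.28 on the log2 scale (adjusted p = 0.0019) and was at -0.046 corrected (adjusted p = 0.50).

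LRP5 encodes a Wnt co-receptor that acts with Frizzled proteins and is known for its role in bone mass. The gene (ENSG00000162337) lies at 68312591 to 68449275 on chromosome 11 (plus strand), with 23 exons and 5177 bases in the canonical transcript. Its level was 51.1, 53.0 and 55.7 CPM in the wild-type libraries and 65.9, 65.6 and 61.6 CPM in the overexpressing ones, with no overlap. As fitted LRP5 rose 1.21-fold (log2 fold change 0.27, SE 0.05, adjusted p = 0.0030). Corrected, the levels of 57.2, 57.9 and 56.5 against 60.7, 59.5 and 59.5 CPM still did not overlap, but the value of 0.067 did not pass (SE 0.03, adjusted p = 0.20) and its 95% interval ran from -0.0096 to 0.14.

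The paralogous co-receptor gene LRP6 went the other way as fitted, from 44.1 ± 3.44 to 30.4 ± 2.04 CPM, SD over 3 libraries a group (log2 fold change -0.53, adjusted p = 0.00074), and was at -0.11 corrected (adjusted p = 0.17). The transcripts of LRP5 and LRP6 have a GC content of 62.9% and 40.9%. Among 21 measured Wnt receptor and antagonist genes, 4 were higher and 4 lower as fitted (19.0% each, against 18.3% and 19.7% of all entries). After the correction 1 was higher and 1 lower (4.8% each, against 10.7% and 11.6%). The lower one was the receptor gene FZD5 (corrected log2 fold change -0.34, adjusted p = 0.037). DKK1, a secreted antagonist that binds both co-receptors, was the higher one and also rose as fitted, from 9.44 ± 0.414 to 17.8 ± 1.76 CPM, SD over 3 libraries a group (1.88-fold, adjusted p = 0.00030; corrected log2 fold change 0.99, adjusted p = 0.00029). The receptor gene FZD6 fell (log2 fold change of -0.39, adjusted p = 0.0021; corrected -0.044, adjusted p = 0.56), and AXIN1, a scaffold of the beta-catenin destruction complex, rose by 0.26 (adjusted p = 0.025; corrected -0.011, adjusted p = 0.93). The AXIN1 call as fitted was also lost without wild-type library 1, wild-type library 2 or overexpressing library 2, with adjusted p from 0.0053 to 0.085 over the 6 omissions, and with library size alone as the scaling (log2 fold change 0.21, adjusted p = 0.061).

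Thrombomodulin itself was not analysed here, but 12 genes of the protein C, thrombin and fibrinolysis system were. As fitted 3 passed as higher and 3 as lower, 25.0% each beside 18.3% and 19.7% of all entries. With GC content and length corrected for, 4 passed as higher (33.3%) and 3 as lower (25.0%), beside 10.7% and 11.6%. In a list of 12 these shares are a description. The thrombin receptor gene F2R fell (log2 fold change of -0.59, adjusted p = 5.5e-05; corrected -0.42, adjusted p = 0.00011). The protease inhibitor TFPI2 rose 1.71-fold (adjusted p = 2.6e-05; corrected log2 fold change 1.06) and the urokinase gene PLAU 1.32-fold (adjusted p = 0.00022; corrected 0.20, adjusted p = 0.0026). PROCR, the protein C receptor that works beside thrombomodulin, was at 58.3 ± 0.788 and 61.5 ± 1.98 CPM (mean ± SD, n = 3 each; adjusted p = 0.22).

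**Figure D3:**
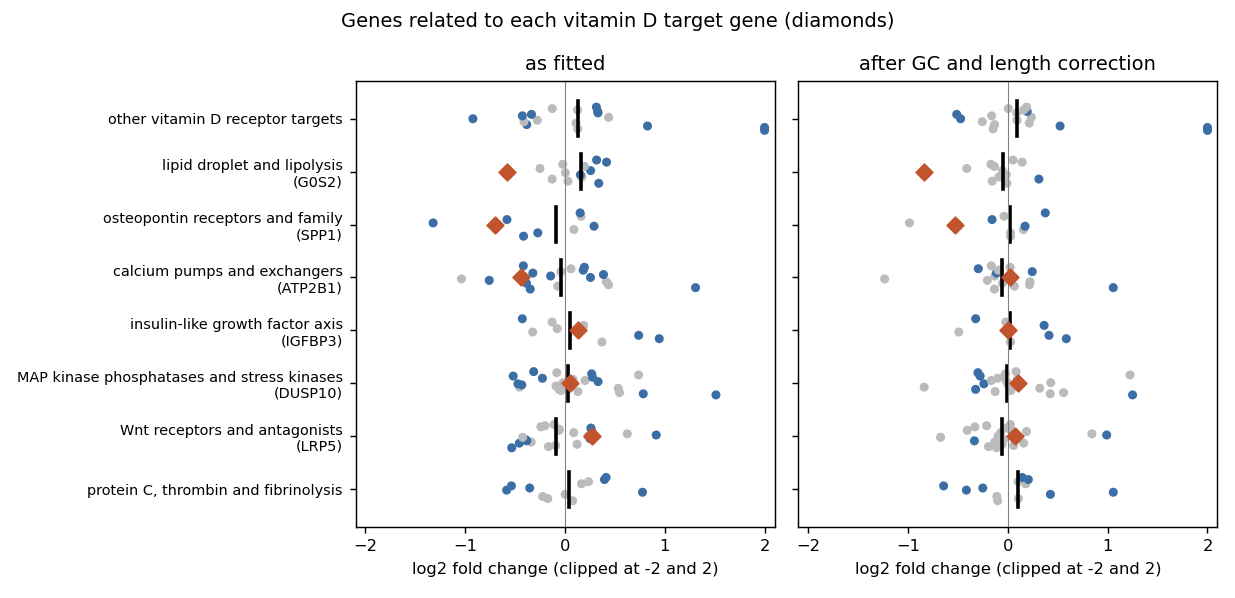
Log2 fold change, overexpression minus wild type, of the measured genes of 8 related lists, as fitted (left) and after the correction for GC content and length (right), with values beyond 2 drawn at 2. Blue points passed an adjusted p of 0.05, grey points did not, black lines are list medians, and orange diamonds are the vitamin D target genes named beside 6 of the lists. The G0S2 diamond lies to the left of every point of its list in both panels.

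Differences across all entries followed the GC content of transcripts, and the target genes can be set against this. With the entries that have a known GC content in 4 bins of 4742, the median log2 fold change was -0.35, -0.12, 0.12 and 0.26 from the lowest to the highest bin. ATP2B1, at 38.0% GC, lay 0.09 below the median of the lowest bin, where 47.7% of entries passed as lower. LRP5 lay 0.01 above the median of the highest bin, where 40.7% passed as higher, and IGFBP3, at 51.1% GC, 0.0095 above that of its bin.

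G0S2 did not follow its bin. With 57.1% GC it fell into the highest bin, yet its log2 fold change lay 0.84 below the bin's median, lower than all but 2.89% of the bin's entries, and 1.79% of them passed as lower. G0S2 lay near the lower edge of this bin, which ran from 56.5% to 83.9% GC. In the bin below it the median was 0.12 and 6.01% passed as lower. SPP1, at 41.1% GC, lay 0.34 below the median of the lowest bin, with 13.9% of the bin's entries lower still. DUSP10, at 45.3% GC, lay 0.17 above the median of its bin. The part of GC content in these differences, in the libraries or in the cells, was not tested.

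**Figure D4:**
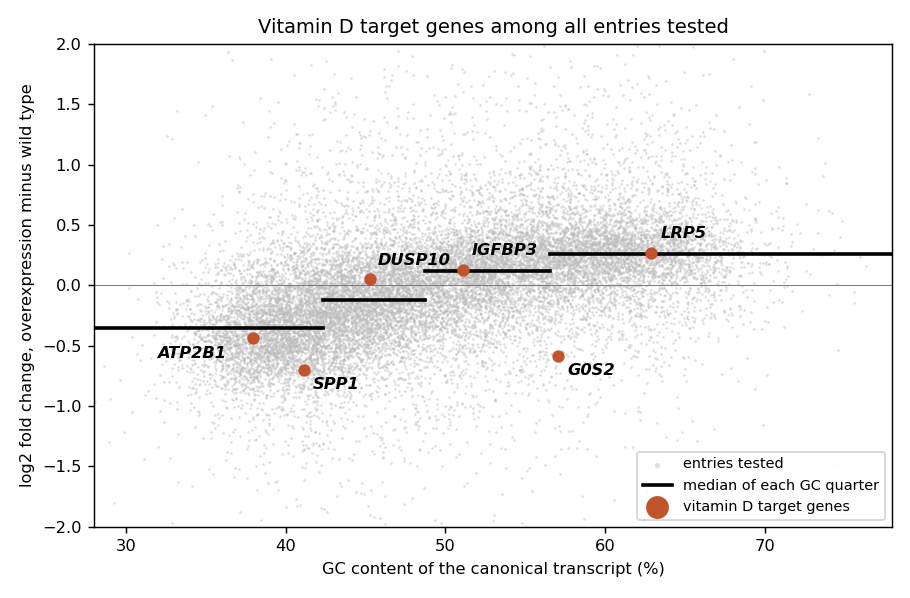
Log2 fold change, overexpression minus wild type (vertical axis), against the GC content of the canonical transcript for the entries tested (grey points, 213 of them outside the plotted range), with the median of each of 4 equal GC bins as a black line. LRP5 and IGFBP3 (orange) lie on the line of their bin, ATP2B1 close to it, and G0S2 0.84 below it.

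The entries whose levels over the 6 libraries were most like those of each gene were found by the root mean square difference of log2 CPM, each centred on its own mean. Among 11408 entries, the nearest to G0S2 were RIC1 (0.039) and LRIG2 (0.045), whose transcripts have a GC content of 43.2% and 42.5%, well below that of G0S2. The nearest to ATP2B1 were NECTIN3 and KLHL5 (0.014 each), at 35.3% and 37.0% GC, and the nearest to LRP5 were RPUSD3 (0.0042) and NQO2 (0.013), at 60.0% and 55.1% GC. SPP1 (41.1% GC) was nearest to CEP57L1 (0.056) and ZNF431 (0.068), at 38.3% and 37.2% GC. IGFBP3 (51.1% GC) was nearest to RPL22L1 (0.019) and ATP6V0A2 (0.041), at 39.9% and 43.4% GC, also well below its own. DUSP10 (45.3% GC) was nearest to LAT2 (0.020) and BEX3 (0.027), at 54.8% and 46.2% GC. The median difference from all 11408 entries was between 0.17 and 0.40 for the 6 genes. The 6 libraries are the same for all of these genes, and no test was made of the likeness.

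The receptor, its partners and other targets give the setting. CYP24A1 was at 0.909, 0.602 and 0.824 CPM in the wild-type libraries and 2513, 3587 and 2623 CPM in the overexpressing ones, highest in overexpressing library 2. In that library SPP1, IGFBP3 and DUSP10 had their lowest uncorrected levels of the 3 overexpressing libraries, and G0S2, ATP2B1 and LRP5 had middle ones. Corrected, ATP2B1 was highest there (39.6 CPM against 37.0 and 38.4) and LRP5 narrowly lowest (59.51 CPM against 60.72 and 59.53). The other genes kept their places. No relation to the CYP24A1 level was tested. The part of reads from the overexpressed RNA in the CYP24A1 counts was not tested. VDR, the receptor gene, was at 61.3, 62.2 and 69.4 CPM against 61.8, 57.0 and 57.4 CPM (log2 fold change -0.13, adjusted p = 0.13), and passed as lower after the correction (-0.22, adjusted p = 0.014). RXRB rose 1.29-fold as fitted (adjusted p = 0.00056; corrected 0.085, adjusted p = 0.20), and RXRA was at 6.17 ± 0.188 and 6.64 ± 0.565 CPM (mean ± SD, n = 3 each; adjusted p = 0.53).

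A list of 33 further targets of the receptor had 17 measured genes, of which 6 were higher and 4 lower as fitted, with a median log2 fold change of 0.13. CYP24A1 is in this list and is counted among the higher genes in both fits. The correction left 4 higher and 2 lower, with a median of 0.092. Besides CYP24A1, the cell cycle inhibitor CDKN1A rose in both fits (0.83 and 0.52 on the log2 scale, adjusted p = 7.2e-05 and 0.00017). So did the growth arrest gene GADD45A (0.33 and 0.19, adjusted p = 0.0014 and 0.017). CD14, a co-receptor of monocytes, also rose in both fits, and went from 0.109 ± 0.0582 to 1.28 ± 0.519 CPM. Its wild-type level was very low and its spread wide in both groups, so the size of its rise is uncertain. The nuclear receptor corepressor NRIP1 fell in both fits, from 25.9 ± 2.07 to 13.7 ± 0.995 CPM, SD over 3 libraries a group (log2 fold change -0.92, adjusted p = 0.00021; corrected -0.47, adjusted p = 0.0012). The bone morphogenetic protein gene BMP6 fell (log2 fold change of -0.34, adjusted p = 0.017) and was at -0.51 corrected (adjusted p = 0.0033). CLMN, a further target, fell (log2 fold change of -0.43, adjusted p = 0.0032) and did not pass corrected (-0.16, adjusted p = 0.19). Of the 17 genes, with CYP24A1 included, 35.3% were higher and 23.5% lower as fitted, against 18.3% and 19.7% of all entries. After the correction the shares were 23.5% and 11.8%, against 10.7% and 11.6%. With 17 genes these counts are a description.

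Markers of other cell types, in which some of these genes are known to be high, were mostly low or not analysed here. Of 7 endothelial markers 5 were measured, with a summed level from 1.79 to 2.35 CPM in wild-type and from 1.50 to 2.42 CPM in overexpressing libraries. Of 6 fibroblast markers 3 were measured, from 2.16 to 3.06 and from 2.26 to 3.58 CPM. Of 8 monocyte and macrophage markers 3 were measured, and their sum was higher in every overexpressing library (82.5 to 91.8 CPM against 72.3 to 76.5), nearly all of it from the lysosomal gene CD68, which many cell types express. The sum of 4 measured of 6 epithelial markers was also higher, from 1677 to 1890 against 1261 to 1429 CPM, nearly all of it from the keratin genes KRT8 and KRT18. RUNX2 was the measured one of 6 osteoblast markers, at 9.65 to 11.6 CPM against 7.76 to 8.93 CPM. None of 5 adipocyte markers was analysed here, nor were EPCAM, CDH1 and PTPRC. These levels are uncorrected, and fewer markers passed after the correction: of the 4 epithelial ones 3 were higher as fitted and 1 corrected, and of the 3 monocyte and macrophage ones 2 and 0. Of all entries tested, 18.3% passed as higher as fitted and 10.7% after the correction. With so few markers these counts are a description. RUNX2 was lower as fitted (log2 fold change -0.38, adjusted p = 0.026) and did not pass corrected (-0.13, adjusted p = 0.45). The part of these levels in the differences above was not tested.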

How the data were processed

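The authors deposited 1 table of raw counts, whole numbers for 19201 entries. Per the labels' protocols, reads were trimmed with fastp and aligned to GRCh38 with HISAT2, and StringTie, gffcompare and edgeR followed. How gene counts came from these steps is not given in the sources used here, nor is strand.

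Counts were tested over 19101 entries with edgeR 4.0.16 (R 4.3.3): a quasi-likelihood F-test with TMM, filterByExpr (min.count 10, min.total.count 15) and group as the sole term. Adjustment was by Benjamini-Hochberg across all of these entries, with a threshold of 0.05. An SE is the log2 fold change over the square root of F. For the correction, each library's log2 CPM was fitted against GC content and log2 length of the GENCODE 44 canonical transcript (natural splines with 5 degrees of freedom), and the fit entered the model as offsets. GC content was known for 99.3% of entries. The model was tested on simulated data: with a GC trend added, the fit without the correction made many false calls, and the corrected fit few. Calls that came from the added trend were counted as false by design, so this outcome followed from the setting. Calls as fitted may hold such a trend, and its cause in these data was not tested. Total counts were 84531039 to 92780032 per library.

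The target genes, the related lists and the correction were chosen with earlier results of these data known. The naming rule covered the target genes, CYP24A1, VDR, RXRA and RXRB, up to 2 rising and 2 falling genes of each list with the smallest p and no overlap between groups, and the 2 entries nearest to each gene with a mean log2 CPM of at least 2. Other list genes were named after their values were seen. Some genes that the rule names are counted in their lists and not reported here by name. No pair of replicates was a repeat of the other, as chi-square over its degrees of freedom was 11.6 or more. Alternatives were DESeq2 1.42.0, limma-voom (limma 3.58.1), other scalings and filters, a replicate block and leaving out each library.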

Additional observations from a re-analysis of the deposited data

How the results depend on the processing

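For the 6 target genes, DESeq2 size factors or library size alone in place of TMM, both other filters on low counts, DESeq2, limma-voom and leaving out any 1 library kept 1 gene higher and 3 lower. Leaving out libraries gave log2 fold changes from -0.63 to -0.54 for G0S2, from -0.83 to -0.58 for SPP1, from -0.50 to -0.40 for ATP2B1, from 0.096 to 0.20 for IGFBP3, from 0.017 to 0.12 for DUSP10 (neither ever passed) and from 0.24 to 0.31 for LRP5. The GC and length correction gave 0 higher and 2 lower, with ATP2B1 at 0.017 and LRP5 at 0.067. With each library left out as well, an alternative chosen after seeing the data, 0 were higher and 1 to 2 lower. G0S2 then ran from -0.87 to -0.83, SPP1 from -0.67 to -0.45, ATP2B1 from -0.0073 to 0.041, LRP5 from 0.056 to 0.075, DUSP10 from 0.043 to 0.19 and IGFBP3 from -0.031 to 0.063. Correction for GC content without length, also chosen after seeing the data, gave 0 higher and 1 lower, with G0S2 passing, SPP1 at -0.43, ATP2B1 at -0.080 and LRP5 at -0.037. The submitters' 2-fold criterion called 0 higher and 0 lower of the 6, against 338 and 226 of all entries. The correction works by removing what a transcript's GC content and length predict, and the cause of the underlying trend was not tested.

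Over all entries 3496 were higher and 3754 lower. The correction left 2041 and 2223, correction without length 2202 and 2685, and correction with a library left out 1328 to 1838 higher and 1357 to 2067 lower. Without correction, leaving out a library gave 2586 to 3439 higher and 2867 to 3730 lower. Named list genes that changed sign under the correction were RXRA (-0.075), PNPLA2 (-0.011), ITGB1 (0.025), MAP2K3 (-0.046) and AXIN1 (-0.011).

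Same-numbered libraries did not deviate together (correlations of -0.073, -0.262 and -0.438 over 10091 genes, none the best for its library). Deviations were taken from group means of 3 libraries, so these correlations depend on each other. They cannot show whether equal numbers mark pairs. With a replicate block the 6 genes kept 1 higher and 3 lower, among 2681 and 3014 entries, and the calls of CD44 (adjusted p = 0.059) and AXIN1 (0.055) were lost. With the block and the correction 0 were higher and 2 lower, among 1516 and 1640 entries, with ATP2B1 at 0.017, LRP5 at 0.067, RXRA at -0.079, PNPLA2 at -0.011, ITGB1 at 0.026, MAP2K3 at -0.047 and AXIN1 at -0.0092. The corrected calls of ITGA4, ITGB5, IGFBP6 and MAP2K4 did not pass with the block (adjusted p from 0.0503 to 0.0748).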
